A study of Mus musculus with 6 samples.

Results

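The genes described here are 31 genes of the cellular response to low oxygen and of glycolysis, the pathway that breaks glucose down to pyruvate and lactate. They were chosen by name: 16 act in glucose uptake, glycolysis or its control, and 15 are other genes of the hypoxia response. Of the 31, 29 had at least 1 probe set that the platform annotation gives to a single gene symbol. Gapdh was represented only by 3 control probe sets of the array, and Eno1 and Bnip3l by none. The remaining 28 genes, with 65 probe sets, were among 18193 genes and 45037 probe sets tested. Expression was measured on 6 mouse Affymetrix arrays, 3 of tumour-associated lymphatic endothelial cells (LECs) and 3 of LECs from healthy tissue. The tumour LECs came from xenografts of MDA-MB-435, a human cancer line, injected subcutaneously and removed after 8 weeks, and the healthy LECs from mammary skin of balb-c/nude mice, a strain that lacks mature T cells. The labels of the tumour samples give no mouse strain. LECs of both groups were cut from sections by laser capture after a short stain against LYVE-1, and their RNA went through 1 round of Ribo-SPIA amplification. The labels speak of biological replicates without naming animals, so the p-values measure only the spread between these samples. The design sets LECs inside tumours against LECs of the normal tissue.

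When oxygen is plentiful, prolyl hydroxylases of the EGLN family mark the alpha subunits of hypoxia-inducible factor (HIF) for degradation through the von Hippel-Lindau protein. When oxygen falls, the subunits encoded by Hif1a and Epas1 persist, pair with ARNT and bind short DNA elements with the core ACGTG or GCGTG. HIF targets include the glucose transporter GLUT1 and most glycolytic enzymes, and endothelial cells, lymphatic ones included, draw much of their energy from glycolysis even in the presence of oxygen. HIF activity is set mainly through protein stability, so the mRNA of its subunits is only part of the picture.

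The DNA before the start of several of these genes carries that core. The RefSeq promoter table (GRCm38.p6) held 38 windows of 250 bases before a gene start for 28 of the 31 genes. These 28 include Eno1 and Gapdh, which were not tested, and lack Bnip3l, Epas1 and Ndrg1. Windows of a gene can overlap, and in Aldoa the same core was counted in overlapping windows. The letters ACGTG, searched on both strands (CACGT on the printed strand is the same core on the other strand, and CACGTG counts for both), stood in 20 of these 38 windows, or 52.6%, against 16.6% of all 32851 windows and 17.8% of the 21262 windows of protein-coding genes. The windows of the listed genes were richer in G and C (63.0%) than those of protein-coding genes (55.5%), and the comparison was not matched for this. The second core, GCGTG, stood in 57.9% of the listed windows and 33.8% of protein-coding ones. By gene, 18 of the 28 had ACGTG in at least 1 window, or 64.3%, against 20.0% of protein-coding genes. The other 10, with no ACGTG, were Aldoc, Eno1, Gapdh, Higd1a, Hk1, Mif, Pdk1, Pfkl, Pfkp and Tpi1. Such a match is a string of letters and not evidence of binding. The windows below were picked as ones that hold the core, so they show no link between the core and expression. They are of the transporter Slc2a1, the glycolytic enzyme Pgam1, the prolyl hydroxylase gene Egln3, the ankyrin repeat gene Ankrd37 and the collagen-modifying P4ha1. Each is printed 5′ to 3′ on the strand of its gene, with ACGTG or CACGT in capitals. They lie at chr4:119108495-119108744 (plus strand), chr19:41911621-41911870 (plus), chr12:54203875-54204124 (minus), chr8:45999851-46000100 (minus) and chr10:59323046-59323295 (plus) in that order.
Slc2a1: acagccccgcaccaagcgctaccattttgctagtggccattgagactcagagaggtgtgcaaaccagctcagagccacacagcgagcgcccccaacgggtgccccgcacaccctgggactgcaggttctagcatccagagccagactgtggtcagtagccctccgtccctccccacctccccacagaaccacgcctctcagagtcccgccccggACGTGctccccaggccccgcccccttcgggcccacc
Pgam1: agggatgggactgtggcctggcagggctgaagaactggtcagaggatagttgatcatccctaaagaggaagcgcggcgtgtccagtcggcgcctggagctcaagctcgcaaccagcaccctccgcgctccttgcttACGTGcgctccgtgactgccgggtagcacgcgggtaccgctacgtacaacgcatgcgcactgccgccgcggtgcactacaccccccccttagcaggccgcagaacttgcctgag
Egln3: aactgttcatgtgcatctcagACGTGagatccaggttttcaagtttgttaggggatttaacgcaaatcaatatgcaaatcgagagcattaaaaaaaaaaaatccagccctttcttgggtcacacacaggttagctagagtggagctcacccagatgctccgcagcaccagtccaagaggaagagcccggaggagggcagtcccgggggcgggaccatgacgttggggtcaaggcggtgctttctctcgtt
Ankrd37: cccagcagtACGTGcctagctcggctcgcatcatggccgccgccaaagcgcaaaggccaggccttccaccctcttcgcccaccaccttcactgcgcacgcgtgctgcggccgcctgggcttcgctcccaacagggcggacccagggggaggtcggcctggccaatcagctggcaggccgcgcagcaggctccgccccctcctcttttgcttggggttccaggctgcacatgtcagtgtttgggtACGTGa
P4ha1: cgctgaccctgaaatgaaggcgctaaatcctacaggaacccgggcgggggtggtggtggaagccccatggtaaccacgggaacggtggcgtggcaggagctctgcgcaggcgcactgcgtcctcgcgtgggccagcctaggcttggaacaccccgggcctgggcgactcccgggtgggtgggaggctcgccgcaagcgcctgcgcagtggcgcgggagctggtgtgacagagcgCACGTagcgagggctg
The first capital letter lies 36 bases before the start in Slc2a1, 114 in Pgam1, 229 in Egln3, 241 and 6 in Ankrd37 and 16 in P4ha1.

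Marker levels differed between the captures. Background, set on each array at the level that 95% of its 27 bacterial controls do not exceed, lay between 3.42 and 3.91 (log2 intensity) in tumour LECs and between 2.96 and 3.81 in healthy LECs. The LEC markers Lyve1 (the stained protein's gene), Prox1, Pdpn and Flt4 were above it on every array, except that Lyve1 had 3.21 in healthy LEC replicate 1, under that array's background of 3.81. The mean of 6 measured LEC markers was 7.83, 8.30 and 8.33 in tumour replicates 1 to 3, against 5.83, 7.14 and 7.52 in healthy replicates 1 to 3. All 11 pan-endothelial markers were higher in tumour LECs, 6 of them without overlap, with array means of 5.86 to 5.94 in tumour LECs and 4.44 to 4.61 in healthy LECs. Of 9 macrophage markers, 8 were higher, 3 without overlap, and their mean was 5.41, 7.36 and 5.68 in the tumour replicates, against 5.38, 5.40 and 5.01 in the healthy ones. Of 13 keratinocyte markers, 12 were lower in tumour LECs, and their mean was 6.10, 5.65 and 4.18 in the tumour replicates, against 7.45, 7.66 and 8.10 in the healthy ones. In such bulk samples, fewer cells of a type and less RNA per cell cannot be told apart, and the part that other captured cells have in the values below was not tested. These markers are mouse genes, and the part of human tumour cells in the captures was not tested either.

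None of the 28 genes passed the limma test across all probe sets, in either direction (adjusted p between 0.729 and 0.989). Over the 18193 genes, each taken by its brightest probe set, 0.0055% were called higher in tumour LECs and 0% lower, and over the 45037 probe sets 0.00444% and 0%, so the test made almost no calls anywhere. At an unadjusted p under 0.05 were 4 of the 28 genes (Pgam1, Hk1, P4ha1 and Ndrg1), or 14.3%, against 7.5% of all genes. Of the 28 genes, 17 had a higher mean in tumour LECs and 11 a lower one, or 60.7% higher, against 57.3% of all genes. The median difference, tumour minus healthy, was 0.21 (log2) over all 28 genes, 0.21 over the 14 glycolysis genes and 0.34 over the 14 other hypoxia genes, against 0.08 over all genes. The groups did not overlap for 2 genes, both glycolytic enzymes with higher values in tumour LECs, or 7.14% of the 28, where 6.58% of all genes were so placed. No member had all tumour values under all healthy ones, against 5.36% of all genes. The shares with a higher mean and with higher values without overlap lie near those of all genes. With only 28 genes, the other shares rest on few members.

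**Figure D1:**
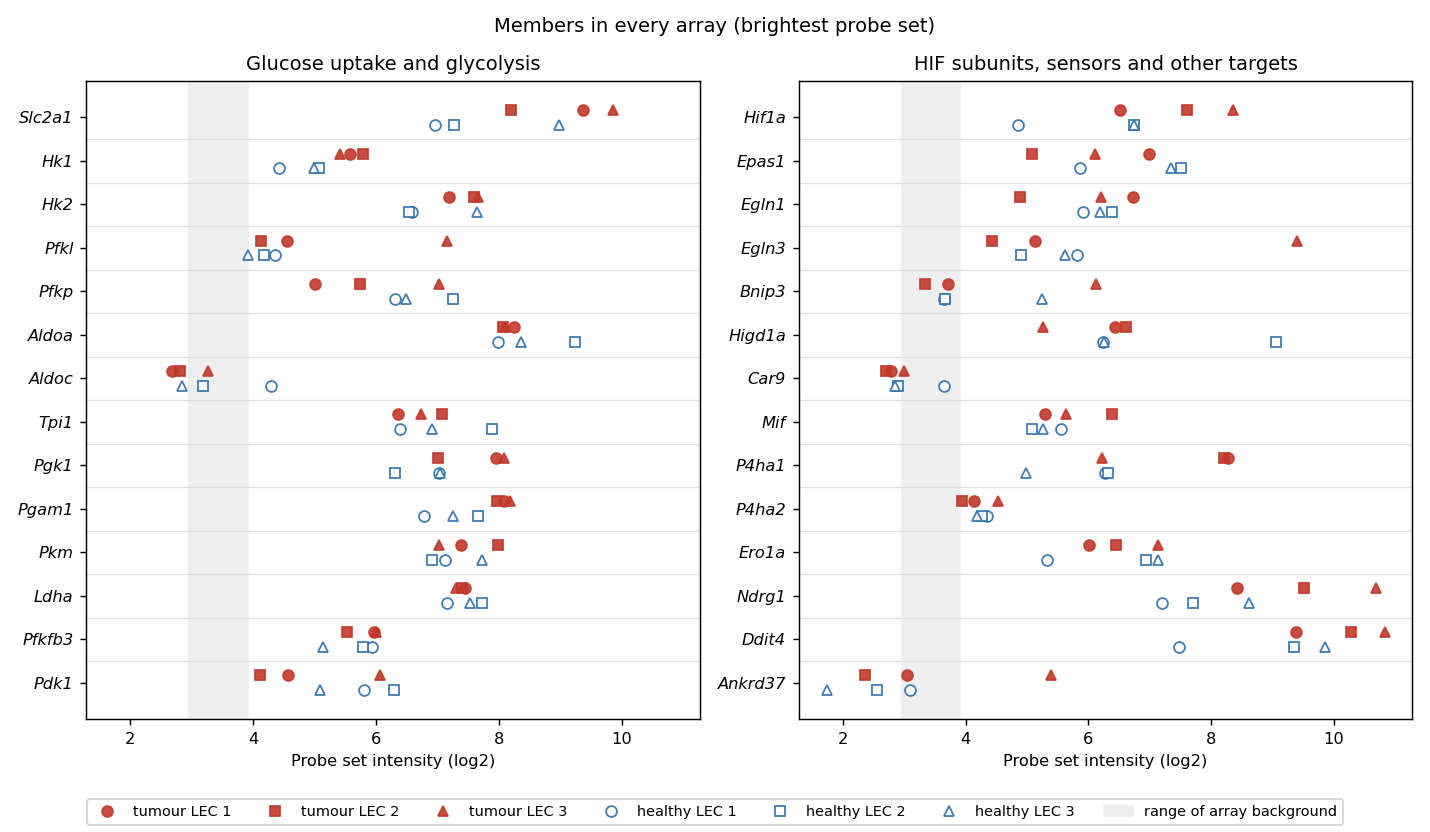
Log2 intensity of the 28 tested genes on each of the 6 arrays, with tumour LECs as filled red symbols above healthy LECs as open blue symbols and the symbol shape giving the replicate number (n = 3 per group, brightest probe set). The grey band is the range of array background, and the red triangle of tumour replicate 3 stands far to the right for Pfkl, Egln3, Bnip3 and Ankrd37.

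Glucose enters endothelial cells through GLUT1, the product of Slc2a1. Its brightest probe set had 9.37, 8.19 and 9.86 (log2) in tumour replicates 1, 2 and 3, against 6.97, 7.28 and 8.99 in healthy replicates 1, 2 and 3. The difference was 1.40 with a standard error of 0.66 (2.63-fold, limma adjusted p = 0.816), and the healthy replicate 3 lay above the lowest tumour sample. A second probe set also gave 1.40, while the third gave 0.08 with tumour replicate 2 the lowest of all arrays at 6.78.

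Isoforms of the first steps of glycolysis had differences of both signs. Hk1 encodes the hexokinase that most cells use to trap glucose. It had 5.58, 5.79 and 5.42 in tumour LECs, against 4.42, 5.07 and 4.99 in healthy LECs, so that the groups did not overlap. The difference was 0.77 ± 0.30 (SE, 95% confidence interval 0.06 to 1.48, limma adjusted p = 0.751). Hk2, the hexokinase isoform that HIF induces, differed by 0.56 and its highest healthy value, 7.65, lay just under the highest tumour value, 7.66. Among the phosphofructokinases, which commit sugar to glycolysis, Pfkl had 4.55, 4.12 and 7.16 in tumour LECs, against 4.36, 4.17 and 3.92 in healthy LECs. Its difference of 1.13 rests on tumour replicate 3, and without that array it was 0.18. Pfkp, the platelet-type isoform, had 5.0, 5.75 and 7.03 in tumour LECs, against 6.31, 7.26 and 6.50 in healthy LECs, a difference of -0.76 that became -1.31 without tumour replicate 3. Pfkfb3, whose product makes the activator of phosphofructokinase and drives endothelial glycolysis during vessel sprouting, differed by 0.21 with a confidence interval of -0.57 to 0.99.

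The lower steps of glycolysis were no more uniform. Pgam1, a phosphoglycerate mutase, had 8.09, 7.97 and 8.18 in tumour LECs, against 6.78, 7.66 and 7.26 in healthy LECs. These groups did not overlap, and the difference was 0.85 ± 0.31 (SE, confidence interval 0.10 to 1.59, limma adjusted p = 0.729), the smallest adjusted p among the 28 genes. Pgk1, phosphoglycerate kinase, had 7.96, 7.02 and 8.08 in tumour LECs, against 7.03, 6.31 and 7.05 in healthy LECs, a difference of 0.89. Its groups met only where tumour replicate 2 lay just under 2 of the healthy samples, but its other 2 probe sets gave -0.44 and -0.49. Unlike the brightest, these 2 are of a type (_x_at) whose probes may bind other transcripts. Aldoa, an aldolase, differed by -0.39 and had negative values on all 5 of its probe sets, between -0.82 and -0.14, all of this _x_at type. Tpi1, triosephosphate isomerase, differed by -0.34 on a brightest probe set of the same type and by -1.26 with that type left out. Its remaining, dimmer probe set, also not of that type, gave 0.15. Pkm, pyruvate kinase, differed by 0.21. Ldha, which turns pyruvate into lactate and is a textbook HIF target, had 7.45, 7.40 and 7.31 in tumour LECs, against 7.16, 7.73 and 7.54 in healthy LECs. Its tumour values lay inside the healthy range, and the confidence interval of the difference ran from -0.74 to 0.56. Pdk1, the kinase that keeps pyruvate out of the mitochondria, had 4.57, 4.11 and 6.07 in tumour LECs, against 5.80, 6.29 and 5.09 in healthy LECs (difference -0.81). Aldoc, an aldolase of the brain, was above background only in healthy replicate 1.

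Gapdh, the enzyme most often used as a loading control, was read by 3 control probe sets placed along its transcript, which were not part of the test. The probe set in the middle had 8.12, 8.04 and 8.81 in tumour LECs, against 7.11, 7.05 and 6.02 in healthy LECs. At the 5′ end the values were 7.74, 6.71 and 7.26 in tumour LECs, against 5.98, 5.88 and 6.17 in healthy LECs. Neither of these sets of values overlapped between groups. At the 3′ end they were 9.89, 10.81 and 9.56 in tumour LECs, against 9.70, 9.11 and 8.94 in healthy LECs, and here the groups overlapped. The differences were 1.60, 1.23 and 0.84. The 3′ value minus the 5′ value, a measure of RNA integrity, averaged 2.85 ± 1.09 in tumour LECs and 3.24 ± 0.47 in healthy LECs (SD, n = 3 each, exact two-sided permutation p = 0.6, where 0.1 is the smallest that 3 against 3 arrays allow).

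**Figure D2:**
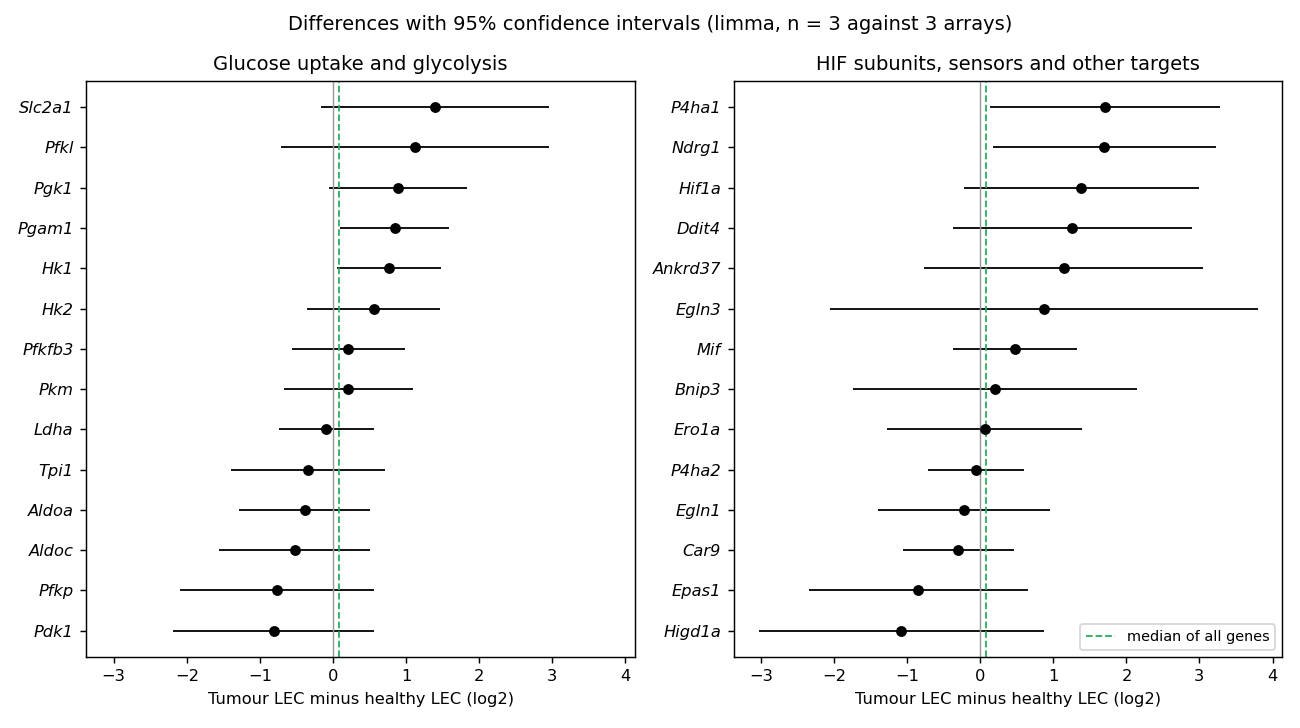
Difference in mean log2 intensity, tumour LEC minus healthy LEC, of the 28 tested genes with 95% confidence intervals from limma (n = 3 per group). The dashed line is the median of all genes, 0.08. The intervals of Pgam1, Hk1, P4ha1 and Ndrg1 exclude 0 before adjustment, and Aldoc, Car9 and Ankrd37 were mostly below background.

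The HIF subunits had differences of opposite sign on their brightest probe sets. Hif1a had 6.52, 7.61 and 8.36 in tumour LECs, against 4.86, 6.74 and 6.75 in healthy LECs, a difference of 1.38 ± 0.68 (SE, limma adjusted p = 0.828). Tumour replicate 1 lay under 2 healthy samples, and the other 3 probe sets of Hif1a gave 2.49, 0.10 and -1.04. In that order, these 3 were above background on 3, 4 and 5 of the 6 arrays. Epas1, which encodes the HIF-2 alpha subunit prominent in endothelium, had 6.98, 5.08 and 6.11 in tumour LECs, against 5.86, 7.51 and 7.35 in healthy LECs. Its difference was -0.85, with -0.57 on the second probe set.

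Of the oxygen sensors, Egln1, the main HIF prolyl hydroxylase, differed by -0.22 with a confidence interval of -1.40 to 0.95. Egln3, a hydroxylase gene that HIF itself switches on, had 5.12, 4.43 and 9.39 in tumour LECs, against 5.81, 4.91 and 5.63 in healthy LECs. Tumour replicate 3 thus stood above every other array by more than 3 units, and without it the difference of 0.87 turned to -0.67. The second Egln3 probe set did not share this, with 5.08 in tumour replicate 3 and 4.56 to 5.91 in healthy LECs.

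P4ha1, a collagen prolyl 4-hydroxylase subunit, had 8.27, 8.21 and 6.22 in tumour LECs, against 6.27, 6.33 and 4.98 in healthy LECs. This was the largest difference among the 28 genes (1.71 ± 0.66, SE, 3.27-fold, limma adjusted p = 0.748), although tumour replicate 3 lay under 2 of the healthy samples, and its second probe set gave 0.46. Its paralogue P4ha2 differed by -0.06 (confidence interval -0.72 to 0.60), and Ero1a, the oxidase that forms disulfide bonds in the endoplasmic reticulum, by 0.06 (-1.27 to 1.39). Ndrg1, a stress gene induced by hypoxia, had 8.41, 9.51 and 10.69 in tumour LECs, against 7.20, 7.71 and 8.61 in healthy LECs (difference 1.70 ± 0.64, SE, limma adjusted p = 0.736). That probe set is of the _x_at type, whose probes may bind other transcripts, and its groups overlapped by a single pair of arrays. A second probe set, not of that type, did not overlap between groups. It had 5.11, 6.18 and 6.08 in tumour LECs, against 4.47, 4.35 and 3.92 in healthy LECs (difference 1.54, limma adjusted p = 0.547). Of the 5 Ndrg1 probe sets 4 had positive differences, and the fifth, with -0.62, varied the most between samples of 1 group. Ddit4, an inhibitor of the growth kinase mTORC1, had 9.37, 10.27 and 10.82 in tumour LECs, against 7.47, 9.35 and 9.86 in healthy LECs (difference 1.26).

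Among the genes of mitochondrial proteins, Higd1a, of a small protein of the respiratory chain, had 6.43, 6.61 and 5.26 in tumour LECs, against 6.25, 9.05 and 6.25 in healthy LECs (difference -1.08). All 3 of its probe sets were lower in tumour LECs. For 1 of them the groups did not overlap, with 4.92, 3.60 and 4.01 in tumour LECs, against 5.50, 5.97 and 5.08 in healthy LECs (difference -1.34, limma adjusted p = 0.683). Bnip3, a mitophagy receptor and HIF target, had 3.71, 3.34 and 6.13 in tumour LECs, against 3.65, 3.67 and 5.24 in healthy LECs. It was high on replicate 3 of both groups and near background elsewhere. Mif, a secreted cytokine, had 5.30, 6.38 and 5.64 in tumour LECs, against 5.55, 5.08 and 5.27 in healthy LECs (difference 0.47), and tumour replicate 1 lay under the highest healthy value. Car9, the carbonic anhydrase often used to stain hypoxic tumour tissue, was below background on all 6 arrays (2.71 to 3.01 in tumour LECs and 2.85 to 3.65 in healthy LECs). Ankrd37 had 3.05, 2.36 and 5.39 in tumour LECs, against 3.09, 2.56 and 1.74 in healthy LECs, and only tumour replicate 3 exceeded its background. No fold is given, because 2 of the 3 tumour values also lay below background.

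The highest values were spread unevenly over the arrays. Tumour replicate 3 gave the highest of the 6 values for 14 of the 28 genes, or 50%, against 24.4% of all genes. Among genes above background on every array the counts were 12 of 24, against 23.4% of 7794. It exceeded the next array by more than 1 log2 unit for 3 of those 24 genes, Pfkl, Egln3 and Ndrg1, or 12.5%, against 1.45% of the 7794. These counts use only the brightest probe set of each gene. On the other probe sets tumour replicate 3 ranked 2, 2, 1 and 3 for Ndrg1, 3 for Egln3 and 1 each for Pfkl. Healthy replicate 2 gave the highest value for 7 of the 28, or 25%, against 13.2% of all genes, and for 7 of the 24 above background, or 29.2%, against 14.1%. Tumour replicates 1 and 2 gave it for 2 and 3 of the 28, healthy replicate 1 for 2 and healthy replicate 3 for 0. The mean of the 14 other hypoxia genes was 5.92, 5.84 and 6.78 in tumour replicates 1, 2 and 3, against 5.37, 5.96 and 5.86 in healthy replicates 1, 2 and 3. Without tumour replicate 3 their median difference was -0.23, in place of 0.34, and with the mean of the hybridization controls as a covariate it was -0.091. For the 14 glycolysis genes the means were 6.46, 6.39 and 6.99 in tumour LECs, against 6.22, 6.52 and 6.42 in healthy LECs, and the median without tumour replicate 3 was 0.16.

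**Figure D3:**
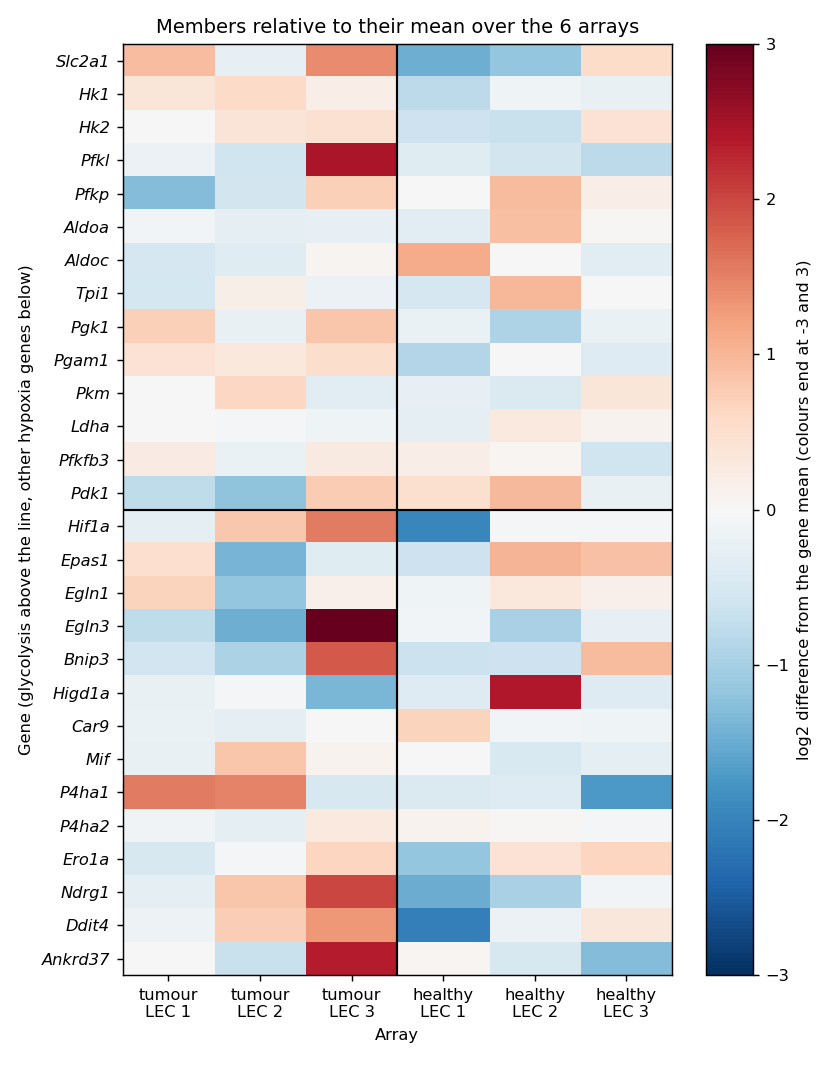
Log2 intensity of each of the 28 tested genes relative to its own mean over the 6 arrays, with tumour LECs in the left 3 columns and healthy LECs in the right 3. Red is above and blue below the mean, and the darkest reds lie in the column of tumour replicate 3 (Egln3, Pfkl, Ankrd37, Ndrg1) and, for Higd1a, in healthy replicate 2.

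Other measures also set tumour replicate 3 apart. It had the lowest mean of the 13 keratinocyte markers, 4.18 against 5.65 to 6.10 in the other tumour samples, and of the 7 fibroblast markers, 5.90 against 8.84 to 9.55. Pericyte and smooth muscle markers had 5.32 there and 6.90 to 7.33 in the other tumour samples, while its LEC markers, at 8.33, and pan-endothelial markers, at 5.86, were close to theirs. It also had the highest background, 3.91, and the highest mean of 18 hybridization controls, 13.36, against 12.78 to 13.20 on the other tumour arrays. The part of these in the high values of Egln3, Pfkl and Ankrd37 was not tested. At the other end, healthy replicate 1 gave the lowest of the 6 values for 9 of the 28 genes, or 32.1%, against 9.98% of all genes, among them Hif1a, Ddit4, Ndrg1 and Slc2a1. That array also had the lowest LEC markers, 5.83, and the highest background of the healthy arrays, 3.81. Its pan-endothelial markers, at 4.44, were close to the 4.46 of healthy replicate 2. The part of these in its low values was not tested.

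**Figure D4:**
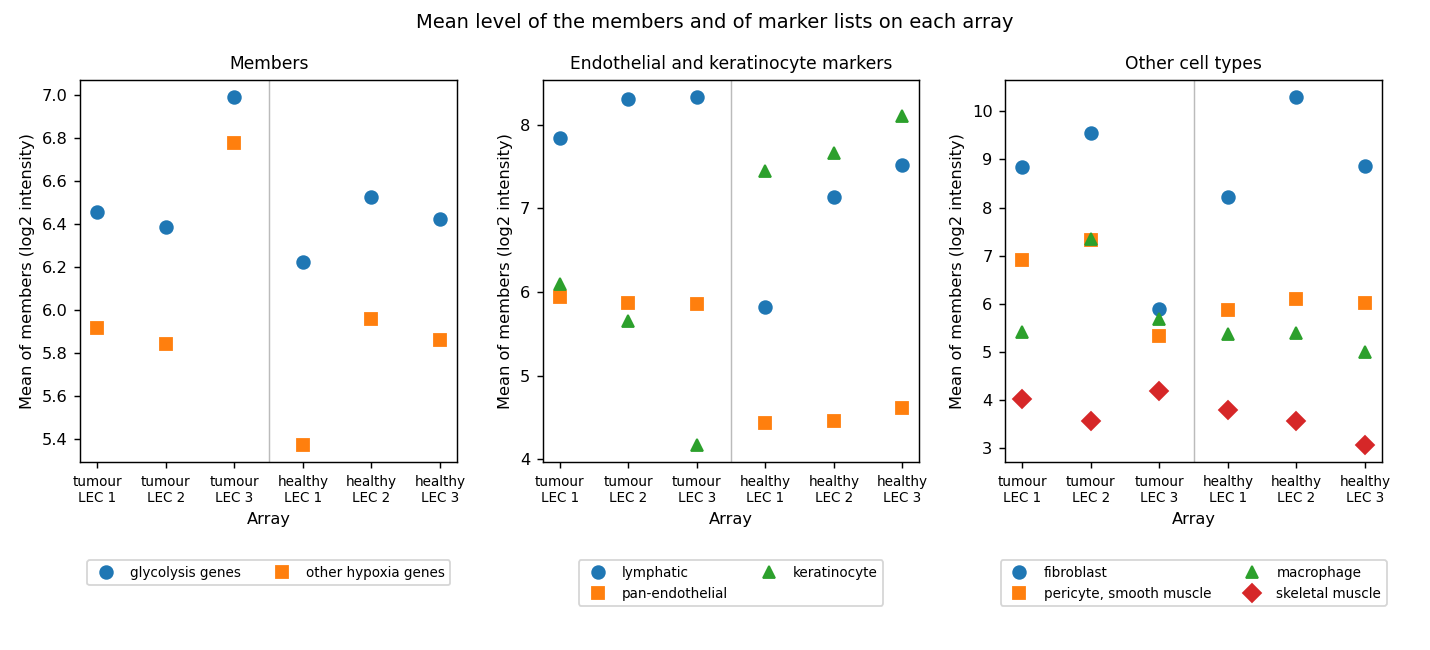
Mean log2 intensity on each array of the tested members (left), of endothelial and keratinocyte marker lists (centre) and of other cell type lists (right), with tumour LECs left of the grey line and healthy LECs right of it. Each point is 1 array; tumour replicate 3 has the highest mean of the hypoxia genes (6.78) and the lowest mean of keratinocyte (4.18) and fibroblast (5.90) markers.

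How far the probe sets of a gene went together bears on each value above. Of the 28 genes, 19 had more than 1 probe set, and for 7 of these the probe sets differed in sign, namely Egln3, Ero1a, Hif1a, Ndrg1, Pdk1, Pgk1 and Tpi1. Over all 65 probe sets 35 were positive, and the groups did not overlap for 5 with higher and 1 with lower values in tumour LECs. Those 6 were of Hk1, Pgam1, Ndrg1, Pfkl, Mif and Higd1a, and the probe sets of Pfkl and Mif among them were below background on every array. Over all probe sets 6.22% had higher and 4.91% lower values without overlap.

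**Figure D5:**
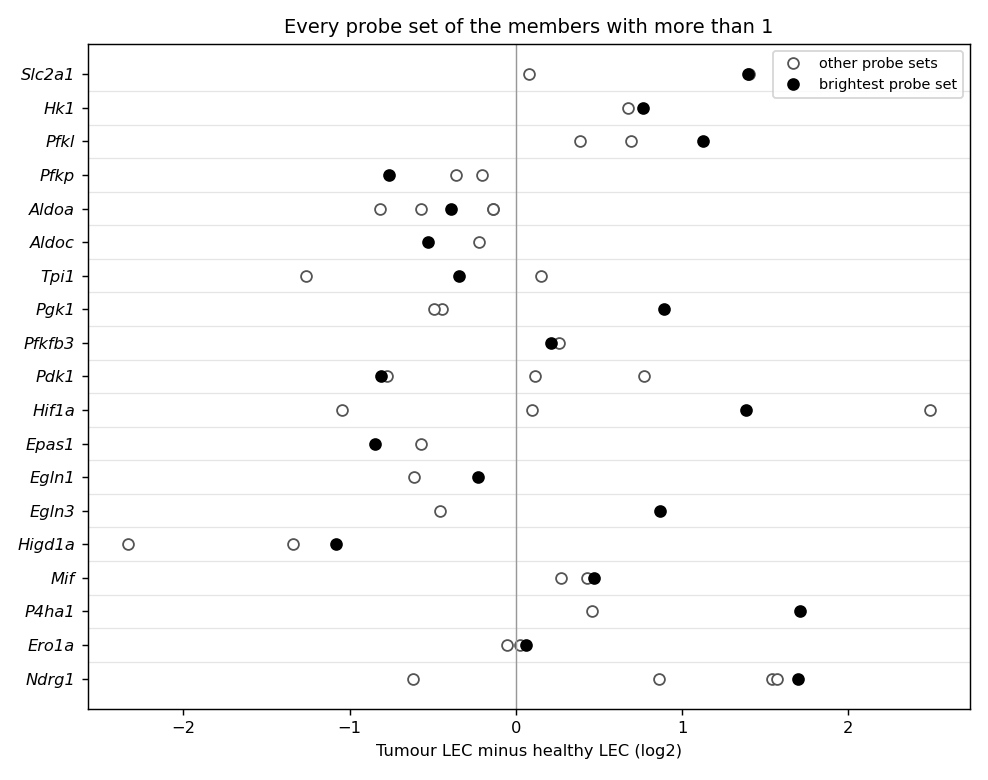
Difference in mean log2 intensity, tumour LEC minus healthy LEC, for every probe set of the 19 genes with more than 1 (n = 3 per group). The filled point is the brightest probe set, and open points on the other side of 0 are seen for Pgk1, Hif1a, Egln3, Ndrg1, Pdk1, Tpi1 and Ero1a.

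Other genes of the same pathways, from lists drawn up beside the 31, were examined in the same fit. Of 26 further genes of glycolysis and pyruvate use, 21 were measured and none was called by limma (1 at an unadjusted p under 0.05, or 4.76%, against 7.5% of all genes). The median difference was 0.24, against 0.08 over all genes. The groups did not overlap for 1 gene with higher values (Pgk2) and 1 with lower values (Ldhb). This was 4.76% each way, against 6.58% of all genes higher and 5.36% lower. Ldhb, the lactate dehydrogenase subunit that favours pyruvate, had 7.02, 5.41 and 2.36 in tumour LECs, against 8.85, 10.53 and 8.10 in healthy LECs. No tumour value reached the healthy range (difference -4.23, limma adjusted p = 0.62), and tumour replicate 3 was the lowest. The part of other captured cells in this was not tested. Pgk2, Pdha1 and Pfkm, next by p, differed by 1.00, 1.77 and 0.57. Of 36 further HIF pathway genes and targets 34 were measured and none was called by limma (7 at an unadjusted p under 0.05, or 20.6%, against 7.5% of all genes). Their median was 0.01, and 4 had higher and 4 lower values without overlap, or 11.8% each way, against 6.58% of all genes higher and 5.36% lower. Plod1, a collagen lysyl hydroxylase, had 8.29, 6.95 and 6.75 in tumour LECs, against 5.74, 5.26 and 4.54 in healthy LECs (difference 2.15, limma adjusted p = 0.539). Bhlhe40, a transcriptional repressor induced by hypoxia, differed by 1.30, whereas Insig2, a regulator of sterol synthesis, and Rora, a nuclear receptor, differed by -1.93 and -2.40 (limma adjusted p = 0.329 for Insig2 and 0.5 for Rora).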

How the data were processed

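Mouse Affymetrix arrays of laser-captured LECs, 3 from tumours and 3 from healthy mammary skin, were analysed, grouped by their labels. The authors deposited 1 normalized intensity per probe set and array on a linear scale. The method was RMA, per the submitters' processing notes, software and version not given in the sources used here. Intensities were converted to log2 of the deposited values with no offset or further normalization, and the number of arrays limits the precision. Of 45101 probe sets, 64 controls were left out, and 45037 were fitted in R 4.3.3 by lmFit and eBayes of limma 3.58.1 (no covariate, two-sided), with Benjamini-Hochberg adjustment over all of them and a threshold of 0.05. The fit was tested on simulated data. The platform annotation supplied gene symbols: 34945 probe sets had 1 symbol, 932 several and 9160 none. Of those with 1 symbol 34741 matched RefSeq genes. Each gene was represented by the probe set whose 6-array mean was highest. Levels of different genes were not compared. Background was the 95th percentile of the 27 bacterial controls, taken array by array. Tables and figures were made with Python 3.11.15.

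The genes and lists were chosen with earlier results of these data known, so no count over them is independent evidence. Values in every sample were given, by rule, for members whose groups did not overlap and for the member with the smallest p in each role. The sample values of further members (Hk2, Pfkl, Pfkp, Pgk1, Ldha, Epas1, Ddit4, Bnip3, Car9 and Ankrd37) and of single probe sets were chosen after they were seen. Of each further list up to 4 genes with the smallest p were named. Alternatives changed the filter, normalization, centring, log offset, replicate block, prior, array weights, hybridization controls, probe set rule and the samples left in. Promoter windows were RefSeq's for GRCm38.p6, trimmed to the 250 bases before the start.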

Additional observations from a re-analysis of the deposited data

How the results depend on the processing

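None of the 28 genes was called under any alternative, with limma adjusted p no lower than 0.306, or 0.55 with 1 array left out. The number of probe sets called over the whole table, 2 as analysed, was 21 with a filter on dim probe sets (above background on at least 3 arrays), 22 with array weights, 1 with a trended and robust prior, and 0 with centring on array medians, log2(value + 16), the hybridization controls as a covariate or the mean of a gene's probe sets. Leaving out 1 array gave 0 to 23, the highest without tumour replicate 2. With the replicate number as a block 0 were called. The median of the hypoxia genes was 0.34 as before, because each number occurs in both groups and such a block cannot change a difference. The labels do not say that a number marks a shared animal. The deviations of same-numbered samples correlated at 0.04, 0.10 and -0.01, and those of differently numbered ones at -0.15 to 0.12. With so few arrays these values cannot tell whether same-numbered samples share more than a number.

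The median difference of the glycolysis genes, 0.21, lay between 0.16 and 0.26 with 1 array left out and between 0.098 (mean of a gene's probe sets) and 0.35 (quantile normalization) under the other alternatives. That of the hypoxia genes, 0.34, was -0.091 with the hybridization covariate and lay between -0.23 (without tumour replicate 3) and 0.63. Genes without overlap, 2 higher and 0 lower in tumour LECs, numbered 4 and 1 with quantile normalization or the mean of probe sets, and 1 was lower with centring. They numbered 2 to 6 higher and 0 to 5 lower with 1 array left out, a step that itself makes overlap rarer.

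Of 276 other alternative values of the members, 11 changed sign. Many of the 276 could not change, so this share says little about stability. The replicate block and the other prior leave every difference as it was. The filter and the probe set rules do so for genes whose probe set they keep. The hybridization covariate gave 0.17 for Ldha, 0.34 for Tpi1, -0.21 for Pfkfb3, -0.90 for Egln3, -0.20 for Bnip3, 0.019 for Higd1a and -0.29 for Ankrd37. Quantile normalization gave 0.12 for Ldha and 0.0054 for Egln1, the mean of probe sets -0.015 for Pgk1, and array weights -0.35 for Ero1a. With 1 array left out 12 of 168 changed sign. The ranges were -0.25 to 0.035 for Ldha, -0.051 to 0.45 for Pkm, -0.68 to 0.069 for Tpi1, -0.032 to 0.37 for Pfkfb3, -0.62 to 0.30 for Egln1, -0.67 to 1.81 for Egln3, -0.51 to 0.39 for Ero1a, -0.22 to 0.073 for P4ha2 and -0.66 to 0.73 for Bnip3. The cause of these changes was not tested. Aldoc, Car9 and Ankrd37 lay too near background for their differences to be read.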
